A study of Mus musculus with 9 samples.

Results

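The genes that mark white fat cells and encode their secreted hormones were examined in whole knee joints of mice: Adipoq, Lep, Retn, Cfd, Pparg, Plin1, Cidec, Fabp4, Lipe and Pnpla2. They were found by gene symbol through the Ensembl IDs of the count files and make up 10 of 53379 gene IDs. The 9 RNA-seq libraries fall into 3 groups of 3. In the Luc and PC2 groups, male C57BL/6 mice had the anterior cruciate ligament cut (ACLT, a surgical model of osteoarthritis) at 8 weeks of age. A lentivirus expressing Luc, the control, or PC2 was injected into the articular space 1 week after surgery, and the knees were collected 8 weeks after the injection. The Non surgery group had no operation, and its age and any injection are not given. Thus the Luc and PC2 groups share the operation and a virus, and Non surgery differs from both by operation and pool, and possibly by injection and age. The protocol does not spell out what PC2 stands for.

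The RNA of all joints of a group was combined into 1 pool, which was sequenced as 3 technical repeats. The error of every value below is therefore the technical spread between repeats, and the p-values say nothing of differences between mice. How many mice entered a pool is not given in the sources used here.

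White fat cells store triglyceride in a single large lipid droplet. The transcription factor PPARG directs their formation, perilipin and CIDEC proteins coat and enlarge the droplet, and a chain of lipases breaks the stored fat down to fatty acids, which the carrier protein FABP4 binds. Fat cells also secrete adipokines, among them adiponectin, leptin, resistin in mice, and adipsin. A knee joint holds fat in the pad behind the patellar ligament and in the marrow, beside muscle, cartilage, bone and synovium. Muscle, endothelium and macrophages use several of the lipid genes too, so Fabp4, Pparg, Lipe and Pnpla2 are less particular to fat cells than Adipoq, Lep, Retn, Plin1 and Cidec.

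The libraries held 17835989 to 19004316 counts in genes, and 17478 genes passed the filter on low counts, all 10 of the fat cell genes among them. The counts of these genes ran from 40 for Lep in a Luc library to 5109 for Cfd in a PC2 library. Levels are edgeR CPM values, counts relative to a library's total scaled with TMM, a factor that aligns the bulk of genes between libraries. A gene rose or fell where the adjusted p of edgeR's quasi-likelihood test was under 0.05 (Benjamini-Hochberg, over all genes tested). Scaling by library size in place of TMM moved the median log2 fold change of all genes from 0.025 to 0.185 in Luc against Non surgery and from 0.010 to 0.168 in PC2 against Non surgery. It left that of PC2 against Luc at 0.006, against 0.008 with TMM.

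Promoters are shown for Adipoq, Lep, Retn and Cfd, the adipokine genes, which with Plin1 had the largest rises in PC2 against Luc libraries. Each sequence is the 200 bases before the transcription start, 5′ to 3′ on the gene's strand, from the RefSeq table of build GRCm38.p6. Capitals mark the letters matching TTGCNNAA (the core bound by C/EBP factors), TATAAA (the TATA box) or CCAAT (the CCAAT box) on either strand. The regions are chr16:23146336-23146535 (+) for Adipoq, chr6:29060021-29060220 (+) for Lep, chr8:3655570-3655769 (+) for Retn and chr10:79890653-79890852 (+) for Cfd.
Adipoq: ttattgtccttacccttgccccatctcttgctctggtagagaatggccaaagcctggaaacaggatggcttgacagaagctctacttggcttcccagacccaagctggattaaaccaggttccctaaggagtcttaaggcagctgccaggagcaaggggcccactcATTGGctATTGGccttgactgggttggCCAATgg
Lep: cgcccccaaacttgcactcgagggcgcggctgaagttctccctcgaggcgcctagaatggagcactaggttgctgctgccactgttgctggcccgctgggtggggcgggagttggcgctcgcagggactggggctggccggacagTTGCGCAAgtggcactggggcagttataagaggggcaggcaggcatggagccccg
Retn: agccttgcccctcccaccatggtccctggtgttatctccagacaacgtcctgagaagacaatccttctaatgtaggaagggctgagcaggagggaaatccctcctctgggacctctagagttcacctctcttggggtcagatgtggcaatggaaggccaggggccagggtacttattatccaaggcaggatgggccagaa
Cfd: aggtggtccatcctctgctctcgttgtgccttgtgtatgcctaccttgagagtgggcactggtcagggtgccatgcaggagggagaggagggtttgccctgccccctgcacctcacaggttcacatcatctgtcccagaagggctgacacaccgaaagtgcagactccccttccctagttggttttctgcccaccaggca
Adipoq held 3 CCAAT matches, at bases -34 and -27 on the minus strand and at base -7 on the plus strand. Lep held TTGCNNAA at base -55, where the letters match on both strands, and its window ends on the first base of the exon annotated in GENCODE. The Plin1 window (chr7:79732777-79732976, minus strand) held TTGCNNAA at bases -187 and -58, but its 127 bases nearest the start lie in exons annotated in GENCODE, so its sequence is not shown. Retn and Cfd held none of these letters. Of the genes not shown, a Pparg promoter held TTGCNNAA at base -16 and CCAAT at bases -144 and -22. Another Pparg promoter held TATAAA at base -29 and CCAAT at base -83. A Cidec promoter held TTGCNNAA at base -198. The remaining Pparg and Cidec promoters and those of Lipe and Pnpla2 held none. No match overlapped one of another motif. TTGCNNAA occurred in 7.47% of 32851 promoters of the same length, TATAAA in 9.96% and CCAAT in 29.3%. The exact direct repeat with 1 base between its parts that PPARG binds together with RXRA occurred in 0.0335% of promoters and in no window of the fat cell genes. The table held a promoter for 9 of the 10 genes, all but Fabp4.

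Fat cell genes moved in different directions in Luc against Non surgery libraries and in a single direction in PC2 against Luc libraries. In Luc against Non surgery, 3 of the 10 rose (Adipoq, Cfd and Plin1), against 31.1% of all genes tested, and 5 fell (Lep, Pparg, Fabp4, Lipe and Pnpla2), against 27.7%. That is 8 genes called in either direction, against 58.8% of all genes. With library size only, 3 rose and 4 fell, and over all genes the rises numbered 7754 and the falls 3304, in place of 5431 and 4848. In PC2 against Luc, 8 of the 10 rose, against 16.1% of all genes, and none fell, against 18.6% (34.7% of all genes were called in either direction). The lowest log2 fold change of the 10 was 0.02 there, and DESeq2 also gave 8 rises. In PC2 against Non surgery, 7 rose, against 31.5% of all genes, and 2 fell (Pparg and Pnpla2), against 31.2% (62.7% in either direction). With library size only, over all genes the rises numbered 7607 and the falls 3761, in place of 5505 and 5447. The median log2 fold change of the 10 genes was -0.11, 0.63 and 0.46 in the 3 comparisons, beside 0.025, 0.008 and 0.010 over all genes tested. The last 2 comparisons share the PC2 libraries, and each group enters 2 comparisons.

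**Figure D1:**
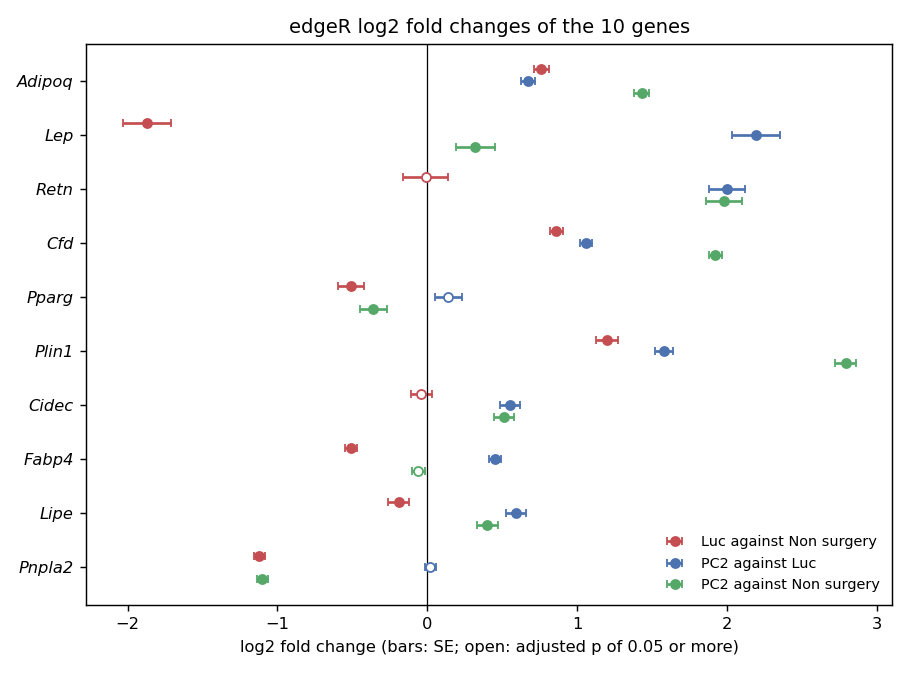
Log2 fold change of each of the 10 genes in the 3 comparisons, with bars for the SE and open circles for an adjusted p of 0.05 or more in edgeR's quasi-likelihood test. The 10 values of PC2 against Luc lie between 0.02 and 2.19, while those of Luc against Non surgery run from -1.87 to 1.20.

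At a fold change of at least 2, the counts were 3, 4 and 5 of the 10 genes in the 3 comparisons, against 15.7%, 3.31% and 16.4% of all genes tested. Plin1 rose that much in Luc against Non surgery (9.43% of all genes did), and Lep and Pnpla2 fell that much (6.32%). Lep, Retn, Cfd and Plin1 rose in PC2 against Luc at least 2-fold, 4 of 10 genes against 1.30% of all genes tested. In PC2 against Non surgery, Adipoq, Retn, Cfd and Plin1 rose at least 2-fold (9.83% of all genes) and Pnpla2 fell that much (6.53%). Libraries of both groups were fully separated in 7 of the 10 genes in Luc against Non surgery (62.9% of all genes), in 8 in PC2 against Luc (48.0%) and in 8 in PC2 against Non surgery (66.0%).

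Of the adipokines, Adipoq encodes adiponectin, a hormone made almost only by fat cells that raises insulin sensitivity (ENSMUSG00000022878, chromosome 16, 23146536 to 23158028 of GRCm38). Its level was 28.8, 28.0 and 30.2 CPM in the Non surgery libraries, 47.4, 51.8 and 48.5 in Luc, and 79.4, 79.4 and 76.0 in PC2. The 3 groups stood apart in that order. Adipoq rose 1.70-fold in Luc against Non surgery (log2 0.76 ± 0.051, SE; edgeR adjusted p = 1.12e-09) and a further 1.59-fold in PC2 against Luc (0.67 ± 0.047; edgeR adjusted p = 1.95e-08). PC2 libraries were 2.70-fold above Non surgery. In bulk samples, more fat cells in a joint and more of a transcript per fat cell cannot be told apart.

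Lep encodes leptin, the hormone that reports fat stores to the brain (ENSMUSG00000059201, chromosome 6, 29060220 to 29073877). It was at 10.2, 8.40 and 9.55 CPM in Non surgery, 2.81, 2.70 and 2.16 in Luc, and 9.74, 11.4 and 13.9 in PC2. These rest on 40 to 54 counts per Luc library and on 146 to 265 in the others. All Luc libraries were below all others, and the Non surgery and PC2 libraries overlapped. Lep fell 3.66-fold in Luc against Non surgery (-1.87 ± 0.16; edgeR adjusted p = 3.32e-08) and rose 4.56-fold in PC2 against Luc (2.19 ± 0.16; edgeR adjusted p = 2.12e-08). PC2 was 1.25-fold above Non surgery (0.32 ± 0.13; edgeR adjusted p = 0.0407), a call that several settings ended. The adjusted p of that comparison was 0.0771 with DESeq2 and 0.0556 with only the libraries of both groups in the fit. It was 0.145 without Non surgery replicate 2, 0.0748 without Non surgery replicate 3, 0.0694 without PC2 replicate 2 and 0.268 without PC2 replicate 3.

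Retn encodes resistin, a secreted protein that opposes insulin action in mice (ENSMUSG00000012705, chromosome 8, 3655770 to 3660110). Its level was 2.52, 2.99 and 2.64 CPM in Non surgery, 2.55, 2.96 and 2.59 in Luc, and 10.6, 10.6 and 11.2 in PC2. These rest on 42 to 52 counts per Non surgery library, 48 to 56 in Luc and 202 to 214 in PC2. Non surgery and Luc libraries overlapped, and every PC2 library lay above them. Retn did not pass the test in Luc against Non surgery (-0.01 ± 0.15; edgeR adjusted p = 0.955), where its sign turned under several settings. It rose 3.99-fold in PC2 against Luc (2.0 ± 0.12; edgeR adjusted p = 3.31e-09) and was 3.96-fold above Non surgery in PC2.

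Cfd encodes adipsin, the complement protease factor D, which mouse fat cells make in large amounts (ENSMUSG00000061780, chromosome 10, 79890853 to 79892655). It stood at 64.3, 70.2 and 70.2 CPM in Non surgery, 119, 129 and 124 in Luc, and 254, 259 and 260.1 in PC2. As for Adipoq, the 3 groups did not overlap and PC2 was highest. Cfd rose 1.82-fold in Luc against Non surgery (0.86 ± 0.043; edgeR adjusted p = 2.17e-11) and 2.08-fold in PC2 against Luc (1.06 ± 0.041; edgeR adjusted p = 1.80e-11). PC2 libraries were 3.78-fold above Non surgery.

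**Figure D2:**
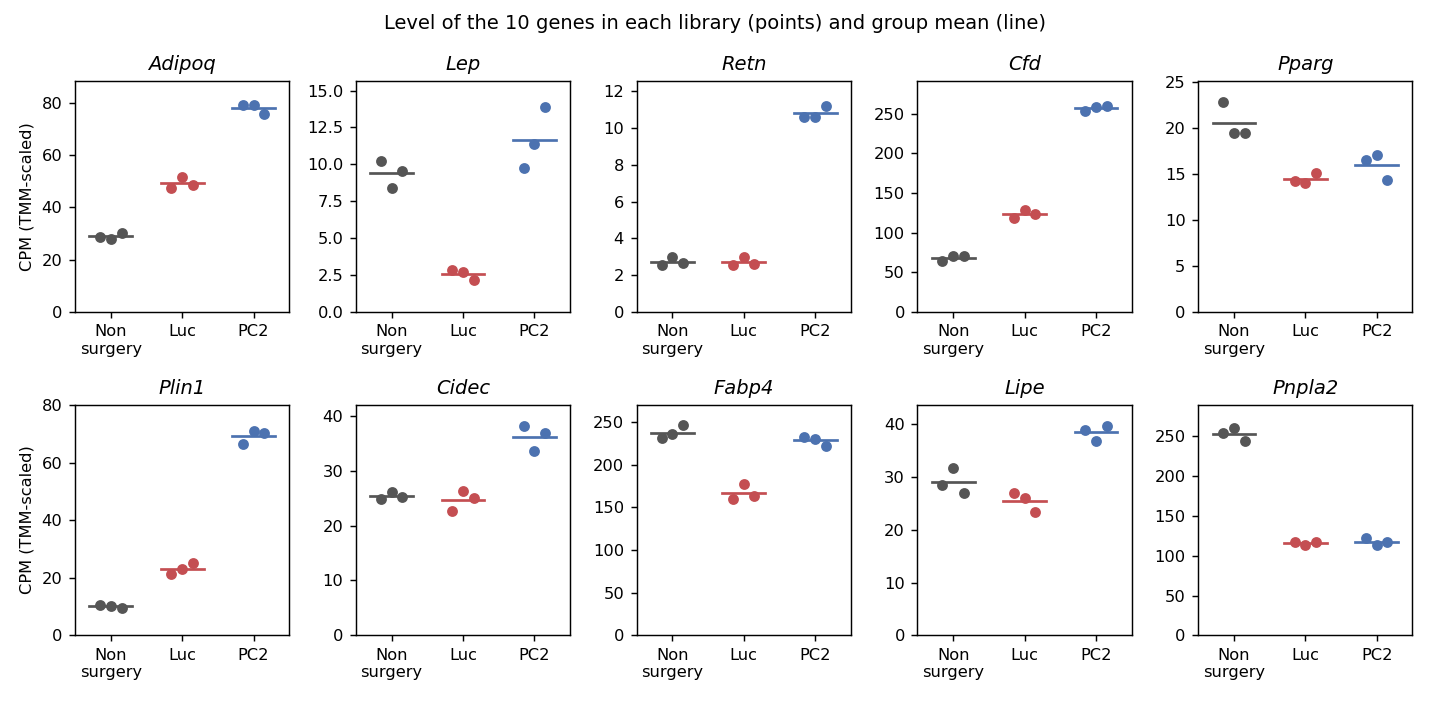
Level of each of the 10 genes in CPM on TMM-scaled library sizes (vertical axes from 0), with a point per library and a line at the group mean. Lep is lowest in the Luc libraries (2.16 to 2.81 CPM), Retn is raised in the PC2 libraries alone of the 3 groups (10.6 to 11.2 CPM), and Pnpla2 is highest in the Non surgery libraries (244 to 261 CPM).

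Pparg, the nuclear receptor that drives fat cell formation, was the transcription factor of the group (ENSMUSG00000000440, chromosome 6, 115360951 to 115490399). It was at 22.8, 19.4 and 19.4 CPM in Non surgery, 14.2, 14.0 and 15.1 in Luc, and 16.5, 17.1 and 14.3 in PC2. Non surgery was above both operated groups, which overlapped. Pparg fell 1.42-fold in Luc against Non surgery (-0.51 ± 0.089; edgeR adjusted p = 0.000116) and 1.29-fold in PC2 against Non surgery (-0.36 ± 0.088; edgeR adjusted p = 0.00176). The difference of PC2 and Luc, 0.14 ± 0.090, did not pass (edgeR adjusted p = 0.241).

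Transcripts of both droplet proteins rose in PC2 against Luc. Plin1 encodes perilipin 1, which coats the droplet of fat cells and gates the access of lipases (ENSMUSG00000030546, chromosome 7, 79720218 to 79732903). Its level was 10.5, 10.3 and 9.37 CPM in Non surgery, 21.4, 23.0 and 25.2 in Luc, and 66.6, 71.2 and 70.3 in PC2. The groups stood apart in the order of Adipoq and Cfd, with wider steps. Plin1 rose 2.30-fold in Luc against Non surgery (1.20 ± 0.074; edgeR adjusted p = 3.84e-10) and 2.99-fold in PC2 against Luc (1.58 ± 0.060; edgeR adjusted p = 1.22e-11). Its 6.89-fold difference between PC2 and Non surgery was the largest fold change of the 10 genes in any of the 3 comparisons.

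Cidec encodes a protein that fuses small droplets into larger ones (ENSMUSG00000030278, chromosome 6, 113424634 to 113435760). It was at 24.8, 26.1 and 25.2 CPM in Non surgery, 22.7, 26.3 and 25.0 in Luc, and 38.1, 33.6 and 36.8 in PC2. As for Retn, Non surgery and Luc overlapped and PC2 was above both. The difference of Luc and Non surgery was -0.04 ± 0.068 (edgeR adjusted p = 0.640), and it turned positive with library size only and without Luc replicate 1. Cidec rose 1.47-fold in PC2 against Luc (0.55 ± 0.065; edgeR adjusted p = 6.79e-06).

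Fabp4 encodes the fatty acid carrier of fat cells, which endothelial cells and macrophages also make (ENSMUSG00000062515, chromosome 3, 10204088 to 10208576). It stood at 231, 236 and 246 CPM in Non surgery, 160.4, 177 and 163 in Luc, and 233, 230.2 and 222 in PC2. Luc libraries were lowest, and the other groups overlapped. Fabp4 fell 1.43-fold in Luc against Non surgery (-0.51 ± 0.041; edgeR adjusted p = 1.14e-08) and rose 1.37-fold in PC2 against Luc (0.45 ± 0.041; edgeR adjusted p = 3.11e-07). PC2 and Non surgery differed by -0.06 ± 0.041 (edgeR adjusted p = 0.231), which turned to 0.101 with library size only (edgeR adjusted p = 0.0448).

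The lipases behaved unlike each other. Lipe encodes hormone-sensitive lipase, which splits diglyceride (ENSMUSG00000003123, chromosome 7, 25379527 to 25398710). Its level was 28.5, 31.6 and 27.0 CPM in Non surgery, 27.0, 26.0 and 23.3 in Luc, and 38.8, 36.8 and 39.6 in PC2. PC2 libraries were above all others, and the ranges of Luc and Non surgery met. Lipe rose 1.51-fold in PC2 against Luc (0.59 ± 0.068; edgeR adjusted p = 4.83e-06) and 1.32-fold in PC2 against Non surgery. Its fall of 1.14-fold in Luc against Non surgery (-0.19 ± 0.070; edgeR adjusted p = 0.0292) lost the call with library size only (adjusted p = 0.733), without Non surgery replicate 2 (0.134) and without Luc replicate 3 (0.132). Of its exon bases, 15.6% are shared with the gene model 4732471J01Rik on the other strand. The strand setting of the counting was not given, so whether reads there were counted for Lipe or set aside as ambiguous is not known. None of the other 9 genes shared exon bases with another gene.

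Pnpla2 encodes adipose triglyceride lipase, which takes the first fatty acid off triglyceride in fat, muscle and other tissues (ENSMUSG00000025509, chromosome 7, 141455198 to 141460743). It was at 254, 261 and 244 CPM in Non surgery, 117, 114 and 117 in Luc, and 122, 114 and 117 in PC2. Non surgery was far above both operated groups, which overlapped. Pnpla2 fell 2.18-fold in Luc (-1.12 ± 0.038; edgeR adjusted p = 1.37e-13) and 2.15-fold in PC2 (-1.10 ± 0.038; edgeR adjusted p = 1.73e-13) against Non surgery. The difference of PC2 and Luc was 0.02 ± 0.038 (edgeR adjusted p = 0.724). Skeletal muscle markers moved in the same direction: the summed level of 12 of them was 61082 to 62937 CPM in Non surgery, 24324 to 24812 in Luc and 28454 to 28637 in PC2. All 12 fell in both comparisons with Non surgery, where 27.7% (Luc) and 31.2% (PC2) of all genes fell, and none was at 0. Their part in the Pnpla2 result was not tested.

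Summed over the 10 genes, the level was 685 ± 8.80 CPM (SD over 3 repeat libraries of 1 pool) in Non surgery and 549 ± 16.3 in Luc, and PC2 libraries reached 865 ± 4.48. Fabp4 and Pnpla2 made up 71.6% of this sum in the unoperated group, 51.5% in Luc and 40.1% in PC2. Without them, the other 8 genes summed to 194 ± 2.36, 266 ± 9.36 and 518 ± 4.32 CPM. Cfd was the largest part of this sum in each group, at 68.2, 124 and 258 CPM. The 8 did not all follow it, and Pparg was at 20.5, 14.4 and 15.9 CPM. Thus the sum of all 10 was lowest in Luc, while the sum of the 8 was lowest in Non surgery. Both sums were highest in PC2.

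The genes were ordered among themselves by CPM per kb of the principal transcript. In Non surgery, Fabp4 led with 265 CPM per kb, followed by Pnpla2 (141), Cfd (74.0), Adipoq (22.4), Cidec (14.7), Pparg (11.6), Lipe (8.03) and Plin1 (3.57). Lep (2.88) and Retn (2.39) came last with libraries that overlapped. In Luc, Cfd (135) had passed Pnpla2 (64.6), and Lep (0.783) was lowest. Plin1 (8.23) and Pparg (8.18) overlapped there. In PC2, Cfd led with 279.6 CPM per kb, ahead of Fabp4 (255), Pnpla2 (65.5), Adipoq (60.6), Plin1 (24.6), Cidec (21) and Lipe (10.6). Retn (9.47) and Pparg (9.02) overlapped, and Lep (3.59) was last. Neighbours in these orders did not overlap except where stated. The order depends on the length used. With all annotated exon bases, Fabp4 ranked 3 in every group, at 53.0, 37.2 and 50.9 CPM per kb, behind Pnpla2 and Cfd in Non surgery, Cfd and Pnpla2 in Luc, and Cfd and Adipoq in PC2. Pnpla2 then ranked 4 in PC2. Plin1 and Lep exchanged places in Non surgery, as did Plin1 and Cidec, and Lipe and Retn, in PC2. The annotated exon bases of Fabp4 form 1 block of 4489 bases that spans the whole gene, against 896 bases in its principal transcript. Overlap of libraries was not examined in the order by all exon bases.

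**Figure D3:**
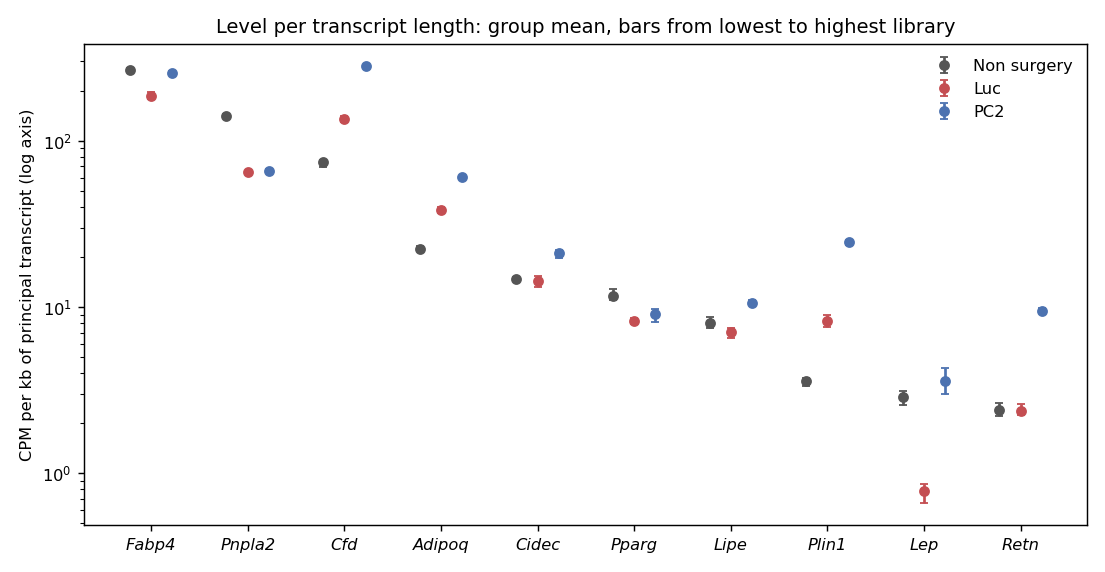
CPM per kb of the principal transcript for each gene (log axis), with a point at the group mean and a bar from the lowest to the highest of the 3 libraries. Plin1 climbs from 3.57 in Non surgery to 24.6 in PC2, while Pnpla2 drops from 141 to about the same level in both operated groups (64.6 and 65.5).

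How far the genes moved apart was read from the ratio of each gene's count to the Adipoq count of the same library, which no scaling of libraries changes. With 3 libraries against 3, the exact two-sided permutation test cannot give a p below 0.10. Among the 27 comparisons (9 genes in 3 contrasts) the exact p was 0.10, adjusted 0.113, wherever the groups did not overlap. For every 100 Adipoq counts there were 32.3 Lep counts in Non surgery and 5.16 in Luc, and PC2 libraries had 14.8. The Lep to Adipoq ratio thus stayed lower in PC2 than in Non surgery (log2 difference -1.13), although the Lep level was not lower. Retn counts per 100 of Adipoq were 9.35, 5.47 and 13.8 in the same order of groups, and Plin1 counts 34.6, 47.0 and 88.6.

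The log2 ratio to Adipoq was higher in PC2 than in Luc by 1.52 for Lep, 1.33 for Retn, 0.91 for Plin1 and 0.39 for Cfd. It was lower by 0.65 for Pnpla2 (log2 difference -0.65), 0.53 for Pparg (-0.53) and 0.22 for Fabp4 (-0.22). For Cidec (-0.12, exact permutation p = 0.200) and Lipe (-0.08, exact permutation p = 0.500) the groups overlapped. In Luc against Non surgery the ratio was higher for Plin1 (0.44) and overlapped for Cfd (0.10, exact permutation p = 0.200). It was lower for the other 7 genes, from -0.77 for Retn to -2.64 for Lep. With Plin1 as the reference gene, the Cfd ratio was lower in all 3 comparisons and the Retn ratio was lower in PC2 than in Non surgery.

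**Figure D4:**
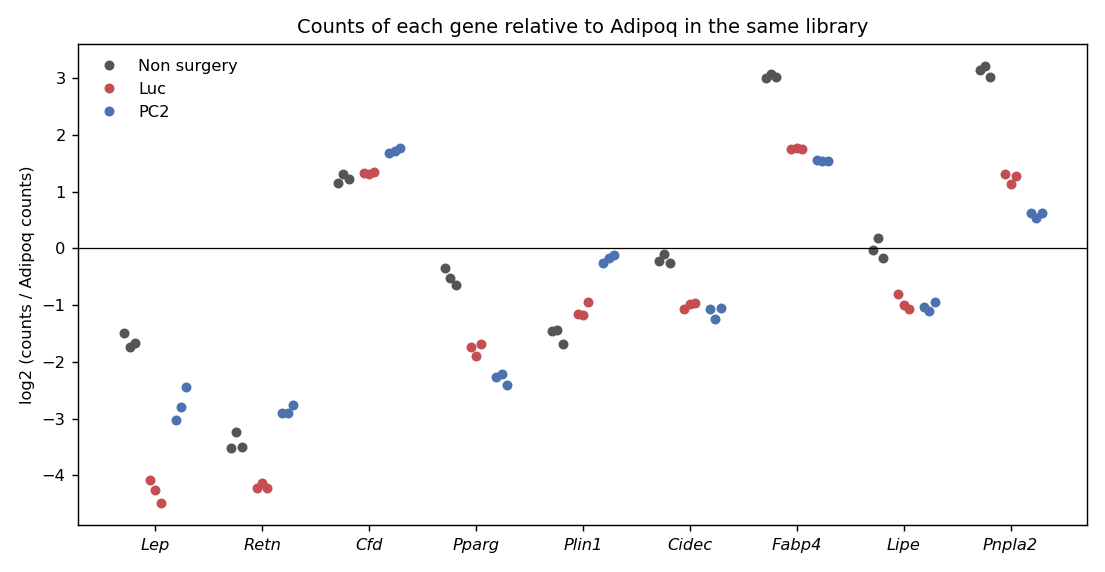
Log2 ratio of each gene's count to the Adipoq count in the same library, with a point per library and colours for the groups. Lep, Retn, Plin1 and Cfd are higher relative to Adipoq in PC2 than in Luc libraries, while Cidec and Lipe overlap.

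Among the genes whose pattern over the 9 libraries was most like that of Adipoq were Fez1, Tnxb, Scd2, Prss35 and Nrep. Likeness was the root mean square difference of mean-centred log2 CPM, and among 11573 genes it ran from 0.0681 for Fez1 to 0.119 for Nrep in those named. Scd2, a fatty acid desaturase, was at 88.4 CPM in Non surgery and 128 in Luc, and PC2 libraries had 209.7. Tnxb, a tenascin of connective tissue, was at 126, 208 and 318 CPM. Of the fat cell genes Cfd was nearest (0.215, with 119 genes nearer than it) and Lep farthest (1.10).

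Most other genes of white fat cells also rose in PC2 against Luc. Of 26 such genes 25 were tested (Itih4 had 4 to 9 counts per library). Of these, 21 rose and 2 fell, against 16.1% and 18.6% of all genes tested. The other 2 did not pass, and the median log2 fold change was 0.54. Nnat, a small membrane protein, rose 4.0-fold from 5.06 to 20.3 CPM. Sncg, gamma-synuclein, rose 3.52-fold from 5.08 to 17.9 CPM. Lgals12, a galectin of fat cell droplets, rose 3.50-fold from 3.28 to 11.5 CPM, and Thrsp, a regulator of fatty acid synthesis, 2.96-fold. Named after their values were seen, those that fell were Angptl4 (-1.16), an inhibitor of lipoprotein lipase, and Cd36 (-0.11), a fatty acid transporter. Those that did not pass, also named after their values were seen, were Lpl (0.04 ± 0.084) and Pde3b (0.10 ± 0.083).

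Of the same genes in Luc against Non surgery, 8 of 25 rose and 10 fell, against 31.1% and 27.7% of all genes tested. Their median was -0.05, and with library size only 11 rose and 9 fell. Adrb3, the beta-adrenergic receptor of fat cells, rose 4.80-fold from 0.453 to 2.20 CPM, and Acvr1c, an activin receptor of fat cells, rose 2.70-fold. Plin4, a droplet protein that muscle also makes, fell 5.75-fold from 434 to 75.4 CPM, and Orm1, an acute-phase protein, fell 2.85-fold. In PC2 against Non surgery 16 rose and 9 fell, against 31.5% and 31.2% of all genes. Adrb3 (8.29-fold), Apoc1 (5.68-fold), Lgals12 (4.85-fold) and Acvr1c (3.74-fold) had the largest rises. The folds of Adrb3 and Apoc1 rest on few counts, with 0.453 and 0.337 CPM in Non surgery. Over all libraries they had 5 to 80 and 4 to 41 counts.

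Genes of fatty acid and triglyceride synthesis were split in Luc against Non surgery, with 7 of 17 rising and 10 falling (median -0.22). All genes tested were split there too, with 31.1% rising and 27.7% falling. Lpin1, a phosphatidate phosphatase, fell 5.34-fold, Mlxipl, a carbohydrate-sensing transcription factor, 2.33-fold and Dgat2, the acyltransferase that completes triglyceride, 2.31-fold. Elovl6, a fatty acid elongase, rose 2.16-fold. Between PC2 and Luc, 10 of 17 rose and 2 fell (median 0.42), against 16.1% and 18.6% of all genes. Pnpla3, a droplet protein listed here, among the lipase partners and among relatives of the 10 genes, rose 10.8-fold from 2.63 to 28.6 CPM. Scd1, a desaturase, rose from 217 ± 8.02 to 1009 ± 7.26 CPM (SD over 3 repeat libraries of 1 pool each), and Fasn, the fatty acid synthase, 2.64-fold from 94.3 to 249 CPM. In PC2 against Non surgery 10 rose and 6 fell, against 31.5% and 31.2% of all genes.

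Regulators and partners of the lipases showed no shared direction. Of 13 such genes in Luc against Non surgery, 6 rose and 5 fell, against 31.1% and 27.7% of all genes tested. Plin5, the perilipin of muscle and other oxidative tissue, fell 4.93-fold, while Hcar2, a receptor that restrains lipolysis, rose 2.40-fold. Ffar4, a fatty acid receptor, rose 2.07-fold from 0.853 to 1.76 CPM. It had 8 to 52 counts per library, and its Luc and Non surgery libraries overlapped. Between PC2 and Luc, 4 rose and 3 fell (median 0.02), against 16.1% and 18.6% of all genes. There Plin5 fell a further 2.52-fold, G0s2, an inhibitor of adipose triglyceride lipase, fell 1.48-fold and Adrb3 rose 1.73-fold. In PC2 against Non surgery 6 rose and 4 fell (8 and 3 with library size only), against 31.5% and 31.2% of all genes.

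Adipokine receptors and partners of PPARG mostly fell in Luc against Non surgery, 9 of 16 with 3 rising. All genes tested fell in 27.7% and rose in 31.1% of cases. With library size only, 6 of the 16 rose and 6 fell. Klf15, a transcription factor of fat and muscle metabolism, fell 3.52-fold, and Ebf1, a transcription factor of fat cell formation, rose 2.86-fold. Against Luc, 3 rose and 6 fell in PC2, beside 16.1% and 18.6% of all genes. A fit without Luc replicate 1 or without PC2 replicate 2 gave 2 rises and 3 falls. The changes there were small, with Cebpb at -0.45, Ncor1, a corepressor, at -0.38, Ncoa2, a coactivator, at -0.35 and Cebpd at 0.33. In PC2 against Non surgery 3 rose and 10 fell, against 31.5% and 31.2% of all genes.

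Markers of other cells of the joint moved too. Of 15 genes of fat cell progenitors and marrow stroma, Pparg among them, 9 rose and 2 fell in Luc against Non surgery. The shares over all genes tested were 31.1% and 27.7%. With library size only, 12 of the 15 rose and 1 fell. Foxc1 rose 2.58-fold and Pdgfra, the receptor that marks progenitors, 2.23-fold. Against Luc, 3 rose and 5 fell in PC2 (median 0.03), beside 16.1% and 18.6% of all genes. These 8 calls dropped to between 3 and 5 with DESeq2 and without Luc replicate 1, Luc replicate 3 or any of the PC2 replicates. The largest log2 fold changes there were 0.22 in Pi16 and -0.22 in Dpp4. The summed level of this list was 1794 to 1832 CPM in Non surgery, 2117 to 2139 in Luc and 2062 to 2077 in PC2.

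Macrophage markers showed a median of -0.02 in PC2 against Luc, with 3 of 12 rising and 4 falling. Over all genes tested, 16.1% rose and 18.6% fell there. The macrophage sums were 2822 to 2971 CPM in Luc and 2838 to 2901 in PC2. In Luc against Non surgery 5 rose and 4 fell (6 and 3 with library size only), from sums of 2396 to 2463 CPM. The shares over all genes there were 31.1% and 27.7%. Endothelial markers fell in 10 of 12 genes in PC2 against Luc (median -0.25), with Kdr at -0.49, Emcn at -0.45 and Pecam1 at -0.37, and sums of 753 to 764 CPM in Luc and 626 to 632 in PC2. The Luc libraries had 8 rises and 3 falls against Non surgery, from sums of 708 to 746 CPM. Neither list held a gene at 0 in all libraries.

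Skeletal muscle markers rose in PC2 against Luc in 10 of 12 genes (median 0.27), and cartilage markers rose in 12 of 12 (median 0.68). Over all genes tested, 16.1% rose and 18.6% fell. The cartilage sums were 5880.0 to 5954 CPM in Luc and 8984 to 9089 in PC2. Bone markers rose in 5 of 12 and fell in 5, with sums of 14518 to 15066 and 17375 to 17580.4 CPM. Col1a1 made up most of the bone sum, with means of 11455 CPM in Luc and 14302 in PC2. Against Non surgery, 11 of 12 cartilage and 12 of 12 bone markers rose in Luc, where 31.1% of all genes rose. Their sums in Non surgery were 1100.4 to 1231 and 3998 to 4388 CPM. The part of these tissues in the results on fat cell genes was not tested. The 12 skin and sebaceous markers summed to 5.23 to 9.55 CPM over the 9 libraries, with Krt14, Krt15 and Dsg3 at 0 in all. Most of that sum was Trp63, with means of 6.70, 3.33 and 3.82 CPM in Non surgery, Luc and PC2. Whether fat from beneath the skin entered the samples was not tested. Of 6 liver markers the sum was 9.11 to 15.3 CPM, with Ttr at 0 in all libraries. Serpina1a made up most of that sum, with means of 10.9, 12.4 and 9.61 CPM in Non surgery, Luc and PC2.

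**Figure D5:**
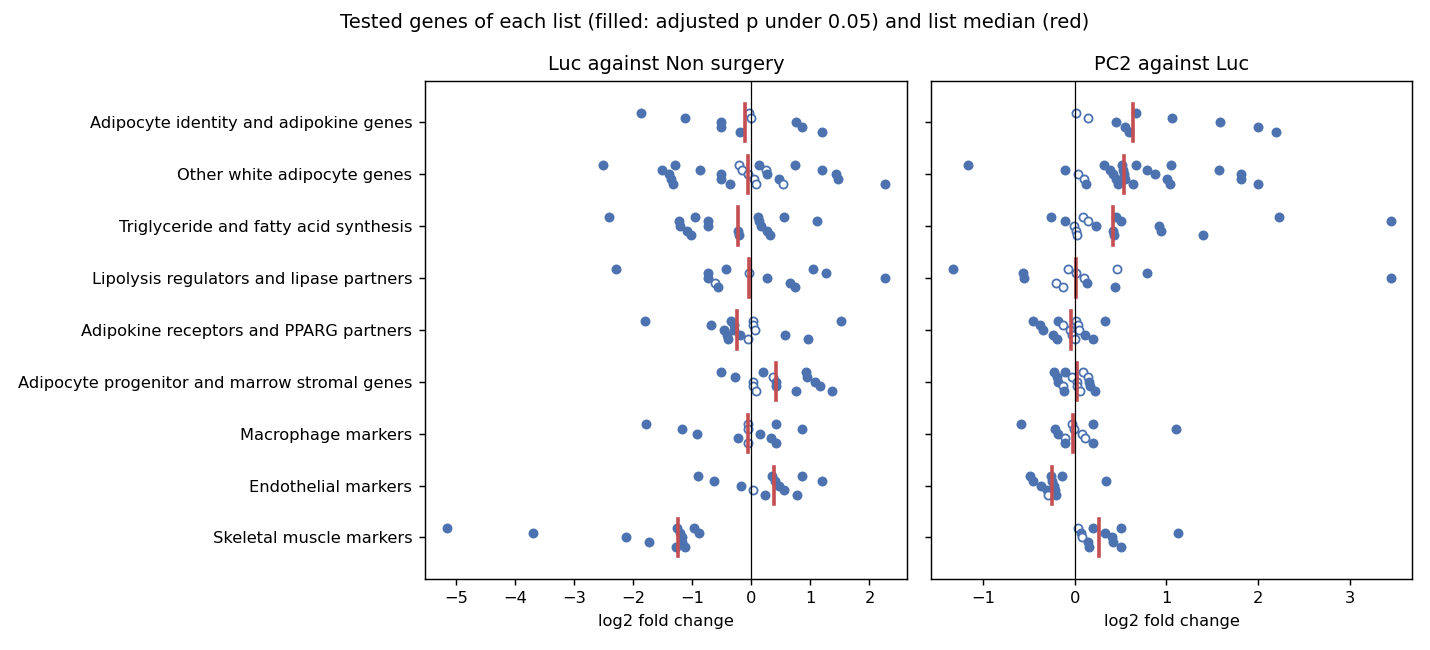
Log2 fold change of each tested gene of 9 lists (horizontal axes), filled where the adjusted p of edgeR's quasi-likelihood test was under 0.05, with the list median as a red bar. In PC2 against Luc the 10 fat cell genes (median 0.63) and the other white fat cell genes (0.54) lie mostly above 0, and endothelial markers mostly below (-0.25).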

How the data were processed

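The authors deposited 1 table of unnormalised read counts for each library, with Ensembl gene IDs. Per the submitters' processing notes, the authors used HISAT2, HTSeq and DESeq2 with mm10, and no versions are given there. Annotation release, strand setting and read filters are not stated. RNA came from TRIzol extraction and libraries from a NEBNext Ultra RNA kit, per the labels' protocols. The HTSeq summary lines (7.29% to 9.25% of reads outside genes and 5.72% to 6.65% ambiguous) stayed out of library sizes and tests. Symbols, coordinates and transcript lengths came from GENCODE M21 (GRCm38), which held 53274 of 53379 IDs.

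All 9 libraries entered 1 edgeR 4.0.16 fit (R 4.3.3) with a group factor, TMM factors and filterByExpr (minimum count 10). The 3 contrasts were two-sided. The SE was taken as |log2 fold change| divided by the root of F. Alternatives were DESeq2 1.42.0, other scalings, no filter, a replicate block, fits of 6 libraries, leaving out each library, a 2-fold limit, and Plin1 in place of Adipoq as the reference of ratios. Counts for PC2 against Luc (17187 genes) were simulated from edgeR's own fitted spread, with 50 genes of higher counts changed at each fold. There 82.0% of genes changed 1.5-fold and 90.0% of those changed 2-fold were recovered, and 8 of 16987 unchanged genes were called. In the data 6058 of 17478 genes were called, so these rates may not carry over.

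Named beside the 10 genes are, per list and comparison, up to 4 called genes of largest fold change that reached 1 CPM in the higher group, and the 6 genes nearest to Adipoq among those of at least 5 CPM. Of these, 1 result is not reported here. The members, the 15 lists and the rule were chosen with earlier results of these data known, so they are no independent support. Motifs were planned for promoters of 300 bases and searched in the 200 bases before the RefSeq start. Between repeats of a group, counts differed by more than counting noise (chi-square per degree of freedom 3.94 to 8.67), so each counted as 1 library.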

Additional observations from a re-analysis of the deposited data

How the results depend on the processing

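With a fold change of at least 2 as part of the call, 3 of the 10 genes were called in Luc against Non surgery, 4 in PC2 against Luc and 5 in PC2 against Non surgery, in place of 8, 8 and 9, and over all genes 2752, 578 and 2860 in place of 10279, 6058 and 10952. Leaving out each library in turn gave 7 to 8, 8 to 8 and 8 to 9 of the 10 genes, and the remaining settings gave 7 to 8, 8 and 8 to 10. The replicate block gave 8, 8 and 9. The replicate numbers did not pair the libraries: deviations of same-numbered libraries correlated at -0.0636 to 0.0919, and 1 of 9 libraries correlated best with its own number in both other groups. Calls were lost for Lipe in Luc against Non surgery and Lep in PC2 against Non surgery, under the settings given with those genes. Directions of fold changes turned for values near 0, in Luc against Non surgery for Retn (0.148 with library size only; -0.087 to 0.059 leaving out each library, above 0 without Non surgery replicate 2, Luc replicate 1 or Luc replicate 3) and Cidec (0.120 with library size only; -0.091 to 0.014 leaving out each library, above 0 without Luc replicate 1), in PC2 against Luc for Pnpla2 (-0.007 to 0.043 leaving out each library, below 0 without PC2 replicate 1), and in PC2 against Non surgery for Fabp4 (0.101 with library size only). With Plin1 as the reference gene, the log2 ratio of Cfd differed by -0.34, -0.53 and -0.87 in the 3 comparisons, and that of Retn in PC2 against Non surgery by -0.80. Counts of called list genes moved by over 1.5 times under the 2-fold limit in most lists. Under other settings this happened for receptors, progenitors and brown and beige genes in PC2 against Luc, for skin in PC2 against Non surgery, and for liver, with 1 gene tested, in all 3 comparisons; the cause was not tested. Lep, at 40 to 54 counts per Luc library, is the least precise of the 10 genes.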

Other observations

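Relatives of the fat cell genes moved in both directions, as did all genes tested. Over all genes, 31.1% rose and 27.7% fell in Luc against Non surgery. The shares were 16.1% and 18.6% in PC2 against Luc, and 31.5% and 31.2% in PC2 against Non surgery. Of 18 paralogs 16 were tested, and 6 rose and 9 fell in Luc against Non surgery, 5 rose and 5 fell in PC2 against Luc, and 6 rose and 6 fell in PC2 against Non surgery (8 and 5 with library size only). Among relatives of Pparg, Ppara, a regulator of fatty acid oxidation, fell 12-fold in Luc against Non surgery, from 15.3 to 1.27 CPM. C1qtnf2, which encodes a secreted protein related to adiponectin, rose 8.96-fold there, from 1.18 to 10.6 CPM. Fabp3, the fatty acid carrier of muscle, fell 1.67-fold in PC2 against Luc, where Fabp4 rose. Plin5 fell 2.52-fold and Plin4 rose 1.54-fold in the same comparison, beside the rise of Plin1. Pnpla3, a relative of Pnpla2, rose 10.8-fold there. Plin4, Plin5 and Pnpla3 are also counted in other lists, so the list counts are not separate from each other.

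Ucp1, the uncoupling protein that defines brown and beige fat cells, had 0 to 2 counts per library and was not tested. Over all genes tested, 31.1% rose and 27.7% fell in Luc against Non surgery, and 16.1% and 18.6% in PC2 against Luc. Of 12 brown and beige genes 8 were tested. In Luc against Non surgery 3 rose and 3 fell, among them Ppargc1a, a coactivator of mitochondrial genes also active in muscle, which fell 6.89-fold, and Dio2, the enzyme that activates thyroid hormone, which rose 4.59-fold. In PC2 against Luc, Zic1 rose 2.18-fold from 0.599 to 1.32 CPM and Ppargc1a 1.24-fold, and the other 6 did not pass. That count of 2 fell to 0 without Luc replicate 1 or without PC2 replicate 1, and to 1 without Luc replicate 3 or with only the libraries of both groups in the fit. Zic1 had 8 to 43 counts per library. It had fallen 3.68-fold in Luc against Non surgery, from 2.22 CPM.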
